A study of Homo sapiens with 2 samples.

Results

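The genes described here supply or read 2 lipid mediators that platelets also release, lysophosphatidic acid (LPA) and sphingosine-1-phosphate (S1P). They comprise 3 enzymes on routes to LPA (ENPP2, LIPH and PLA1A), both sphingosine kinases (SPHK1 and SPHK2) and the 5 S1P receptors (S1PR1 to S1PR5). The 10 genes were chosen by name, and 9 of them have a row among the 21382 gene symbols of the deposited table. S1PR3 was not analysed here. The LPA receptors were left out of the list and appear below only as other genes of the pathway.

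RNA-Seq of total RNA covered untreated cells of 2 human prostate cancer (PCa) lines, MDA PCa 2b with 1 library and RC77 T/E likewise with 1. MDA PCa 2b cells were kept in a Ham's F-12 medium with fetal bovine serum, cholera toxin, mouse epidermal growth factor, phosphoethanolamine, hydrocortisone, selenite and insulin. RC77 T/E cells were kept in Keratinocyte-SFM supplemented with bovine pituitary extract and epidermal growth factor, so that cell line and medium cannot be told apart. Serum holds both LPA and S1P. Values are in TPM, the share of a library's transcripts that a gene takes, adjusted for transcript length so that genes can be compared. With 1 library per cell line, no difference below has a replicate check, and no test was made. The depth of the libraries is unknown, so no floor can be given for values near 0.

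In the deposited table the decimal mark is missing from values of 1 TPM or more that have 3 or more decimals. It was restored from the deposited mean and standard error, which left 1 reading for 8 of the 9 genes analysed. For SPHK2 both a lower and a higher reading remained, and these move both cell lines together. The plain ratio between the cell lines is the same at either reading. Where a pair of values is given without names, MDA PCa 2b comes first.

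Both lines carry the epithelial keratin KRT18, at 320.5 TPM in the MDA PCa 2b line and 324.8 TPM in the RC77 T/E line. The luminal product KLK3 was at 5323 TPM and listed at 0, and the basal keratin KRT5 was at 0.00435 and 4027 TPM. A defining luminal marker was thus listed at 0 in RC77 T/E. Endothelial markers (PECAM1, CDH5 and VWF) summed to 0.207 and 0.0214 TPM. Of the platelet markers, both PF4 and GP9 had a listed value of 0 in each line, and the summed level was 0.0203 TPM in the MDA PCa 2b line and 0 in the RC77 T/E line. Of the fibroblast markers, COL1A1 was at 0.554 and 8.24 TPM, COL1A2 at 0.588 and 0.873 TPM and DCN at 0.491 and 0.0531 TPM, so that COL1A1 and DCN differed in opposite directions. Their sum was 1.63 and 9.16 TPM, mostly COL1A1 in the RC77 T/E line. The part of the lineage and fibroblast markers in the differences described here was not tested.

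LPA arises outside cells when autotaxin, the secreted product of ENPP2, removes choline from lysophosphatidylcholine, and also from phosphatidic acid through the phospholipase of LIPH. S1P is made inside cells, where SPHK1 and SPHK2 phosphorylate sphingosine, and is exported to act on the G protein-coupled receptors S1PR1 to S1PR5. Both lipids are known for control of cell survival, migration and vascular tone. Platelets release S1P when activated, and autotaxin acts on lipids that they shed.

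SPHK1 and S1PR5 were high in the RC77 T/E line and under 1 TPM in the MDA PCa 2b line, at 64.3 against 0.431 TPM and at 18.9 against 0.0199 TPM. SPHK2 was higher in the MDA PCa 2b line, by 2.69 times. The 3 LPA-route enzymes stayed under 1 TPM in both lines.

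**Figure D1:**
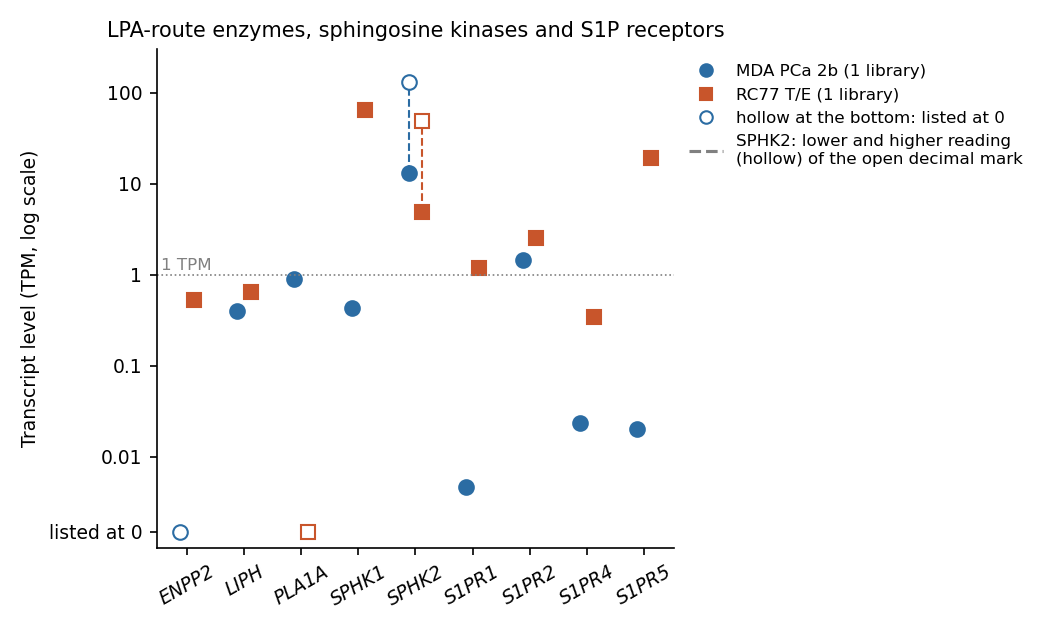
Transcript level in TPM on a log scale for the 9 genes analysed, with 1 point per library (circles, MDA PCa 2b; squares, RC77 T/E). SPHK1 and S1PR5 lie above 10 TPM in the RC77 T/E line and under 1 TPM in the MDA PCa 2b line, hollow points at the bottom are values listed at 0, and the dashed lines for SPHK2 join the lower and higher reading of its open decimal mark.

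Of the 9 genes analysed, 2 were at 1 TPM or more in the MDA PCa 2b line (SPHK2 and S1PR2), where 49.6% of all gene symbols were. In RC77 T/E 5 were (SPHK1, SPHK2, S1PR1, S1PR2 and S1PR5), beside 52.8% of all gene symbols. For an expressed gene the study's methods ask for an average of 1 TPM over its samples and for expression in a minimum share of them. Here only the limit of 1 TPM was used, and it was applied to each line. On the scale of log2 of RC77 T/E over MDA PCa 2b with 1 TPM added to each, 3 genes (SPHK1, S1PR5 and S1PR1) passed 2-fold toward RC77 T/E. Among the 11624 genes with a mean of 1 TPM or more, 19.4% did. Only SPHK2 passed 2-fold toward MDA PCa 2b, beside 20.0% of these genes. Of the 9 genes, only SPHK1, SPHK2, S1PR2 and S1PR5 had such a mean. Among these, 2 passed 2-fold toward RC77 T/E (SPHK1 and S1PR5) and 1 toward MDA PCa 2b (SPHK2). Without the filter on the mean, the shares were 14.4% and 14.5% of 16810 genes above 0. The median log2 ratio over the 9 genes, not filtered on their mean, was 0.52. It was -0.01 over the 16810 genes above 0 and -0.15 over the 11624 genes. Relative to the median of the 11624 genes, the log2 ratios were 5.67 for SPHK1, 4.44 for S1PR5, 1.26 for S1PR1 and -1.11 for SPHK2.

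ENPP2 (ENSG00000136960, chromosome 8 of GRCh38, 119557086 to 119673453), which encodes autotaxin, is listed at 0 in the MDA PCa 2b line and was at 0.528 TPM in the RC77 T/E line. It shares 162 exon bases with the pseudogene CYCSP23 on the same strand in GENCODE release 29. LIPH (ENSG00000163898, chromosome 3, 185506262 to 185552588) encodes a membrane-bound phospholipase that makes LPA from phosphatidic acid, and was at 0.398 TPM in the MDA PCa 2b line and 0.646 TPM in the RC77 T/E line. PLA1A (ENSG00000144837, chromosome 3, 119597875 to 119629811) encodes a secreted phospholipase that makes lysophosphatidylserine, a substrate of autotaxin. Its level was 0.905 TPM in the MDA PCa 2b line, and it is listed at 0 in the RC77 T/E line. The 3 levels summed to 1.30 TPM in the MDA PCa 2b line and 1.17 TPM in the RC77 T/E line. PLA1A was the larger part of the sum in the MDA PCa 2b line, and LIPH with ENPP2 the whole of it in the RC77 T/E line.

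SPHK1 (ENSG00000176170, chromosome 17, 76376584 to 76387860) encodes the mainly cytoplasmic sphingosine kinase, and was at 0.431 TPM in the MDA PCa 2b line and 64.3 TPM in the RC77 T/E line. With 1 TPM added to each value the log2 ratio was 5.51. Of the 11624 genes with a mean of 1 TPM or more, 151, or 1.30%, had a log2 ratio at least as high. With all open decimal marks of other genes at their highest reading, the share was 2.72%. SPHK1 overlaps PRPSAP1 on the opposite strand over 59 exon bases in GENCODE release 29, and PRPSAP1 was at 14.99 and 12.4 TPM.

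SPHK2 (ENSG00000063176, chromosome 19, 48619291 to 48630717) encodes the kinase found largely in the nucleus and on internal membranes. Its level was 13.1 or 131 TPM in the MDA PCa 2b line and 4.86 or 48.6 TPM in the RC77 T/E line, by the lower or higher reading. SPHK2 was thus above 1 TPM in both lines at either reading. Its log2 ratio with 1 TPM added was -1.26 at the lower reading and -1.41 at the higher. In GENCODE, SPHK2 shares 246 exon bases with RPL18, a ribosomal protein gene on the opposite strand, which was at 1915 TPM in the MDA PCa 2b line and 822 TPM in the RC77 T/E line. RPL18 was 2.33 times as high in the MDA PCa 2b line, in the same direction as SPHK2. By the bounds in the deposited table, RPL18 ends before SPHK2 starts. SPHK2 also shares 661 exon bases with DBP, likewise on the opposite strand, which was at 8.96 and 8.15 TPM, and 678 with the antisense gene AC022154.1. The libraries were directional, but whether the deposited values use the strand is not stated, and the part of RPL18 and DBP reads in the SPHK2 value was not tested.

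The order of the kinases was opposite in the 2 lines. SPHK1 made up 3.19% of the summed kinase level in the MDA PCa 2b line and 93.0% in the RC77 T/E line at the lower reading of SPHK2. At the higher reading the shares were 0.329% and 57.0%. In RC77 T/E, SPHK1 was 13.2 or 1.32 times SPHK2, and in the MDA PCa 2b line, SPHK2 was 30.3 or 303 times SPHK1. The size of the MDA PCa 2b ratio is uncertain, since SPHK1 was at 0.431 TPM there, under 1 TPM.

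**Figure D2:**
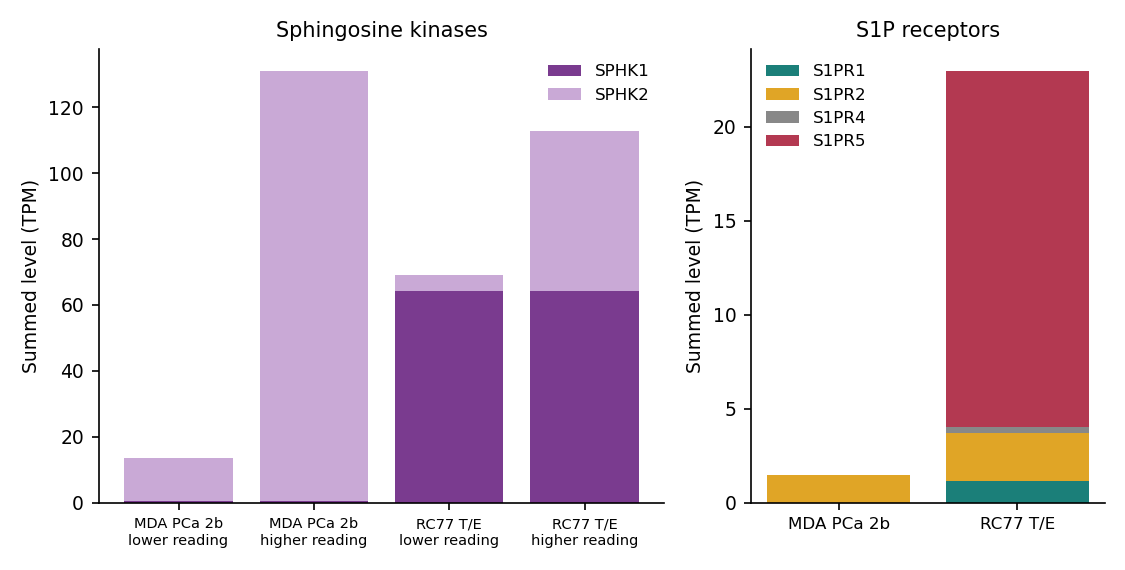
Summed TPM of the sphingosine kinases (left, with both readings of SPHK2) and of the 4 S1P receptors analysed (right) in the 1 library of each cell line. SPHK1 is a thin strip in the MDA PCa 2b line and most of the bar in the RC77 T/E line at either reading, and S1PR5 makes up 82.4% of the receptor sum in the RC77 T/E line while S1PR2 makes up 96.8% in the MDA PCa 2b line.

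The S1P receptors differ in the G proteins that they engage. S1PR1 signals through inhibitory Gi proteins and is best known from endothelial cells and lymphocytes, S1PR2 also reaches other G protein families, S1PR4 is mainly found in blood cells, and S1PR5 is known from oligodendrocytes and natural killer cells. For each of these receptors GENCODE lists 1 coding exon. The 250 bases before the start of S1PR2, the leading receptor in the MDA PCa 2b line, and of S1PR5, the leading one in the RC77 T/E line, are shown because these receptors lead in different lines. Both lie on the minus strand of chromosome 19. The sequences are from RefSeq on GRCh38.p14, at chr19:10231332-10231581 for S1PR2 and chr19:10517966-10518215 for S1PR5, the first of its start sites in that table. Neither window overlaps an exon in GENCODE. Capitals mark the GC box GGGCGG, or CCGCCC on the other strand.
S1PR2: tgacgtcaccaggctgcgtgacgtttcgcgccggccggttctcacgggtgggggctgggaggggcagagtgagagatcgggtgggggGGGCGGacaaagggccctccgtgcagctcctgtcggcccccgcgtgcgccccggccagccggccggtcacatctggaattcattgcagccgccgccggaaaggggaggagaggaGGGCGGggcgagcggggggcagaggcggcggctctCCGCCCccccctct
S1PR5: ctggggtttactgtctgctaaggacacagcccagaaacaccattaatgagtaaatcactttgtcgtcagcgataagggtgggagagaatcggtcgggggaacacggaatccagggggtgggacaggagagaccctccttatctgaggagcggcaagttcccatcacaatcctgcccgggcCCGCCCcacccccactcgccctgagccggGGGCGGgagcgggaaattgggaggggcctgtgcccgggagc
The S1PR2 window holds 3 GC boxes, and the S1PR5 window holds 2. A GC box is in 42.5% of the 34943 windows of this length in the table. The GC content was 74.0% for S1PR2 and 61.6% for S1PR5, beside a median of 58.0% over all windows, and the windows hold 27 and 13 CpG pairs. The window of the other S1PR5 start site, at chr19:10517448-10517697, overlaps an exon by 3 bases and also holds 2 GC boxes, with a GC content of 78.0% and 27 CpG pairs, so that S1PR5 lies below or above S1PR2 in GC content by the start site used. These counts describe letters only, since no binding or methylation was measured.

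S1PR5 (ENSG00000180739, chromosome 19, 10512742 to 10517931) was at 0.0199 TPM in the MDA PCa 2b line and 18.9 TPM in the RC77 T/E line, a log2 ratio of 4.29 with 1 TPM added to each. Of the 11624 genes with a mean of 1 TPM or more, 288, or 2.48%, had a log2 ratio at least as high, and 4.04% with open decimal marks at their highest reading. S1PR5 has no overlapping gene in GENCODE release 29. In RC77 T/E it was 7.496 times S1PR2 and 16.2 times S1PR1.

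S1PR2 (ENSG00000267534, chromosome 19, 10221433 to 10231331) was at 1.45 TPM in the MDA PCa 2b line and 2.53 TPM in the RC77 T/E line, the only receptor analysed that reached 1 TPM in both. The values differed by 1.74 times. S1PR2 shares 83 exon bases with DNMT1 on the same strand, whose level was 1.33 times as high in the RC77 T/E line. The part of shared reads was not tested.

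S1PR1 (ENSG00000170989, chromosome 1, 101236865 to 101243713) was at 0.00461 TPM in the MDA PCa 2b line and 1.17 TPM in the RC77 T/E line, and its mean over both lines was under 1 TPM. Its log2 ratio was 1.11 with 1 TPM added to each. S1PR4 (ENSG00000125910, chromosome 19, 3172346 to 3180332) was at 0.0231 and 0.338 TPM and stayed under 1 TPM in both lines.

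All 4 receptors had the larger value in the RC77 T/E line. Their summed level was 1.502 TPM in the MDA PCa 2b line and 23.0 TPM in the RC77 T/E line, 15.3 times as high. Without S1PR5 the sums were 1.48 and 4.03 TPM, and RC77 T/E was 2.72 times as high. S1PR2 made up 96.8% of the sum in the MDA PCa 2b line and 10.998% in the RC77 T/E line, and S1PR5 1.33% and 82.4%.

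**Figure D3:**
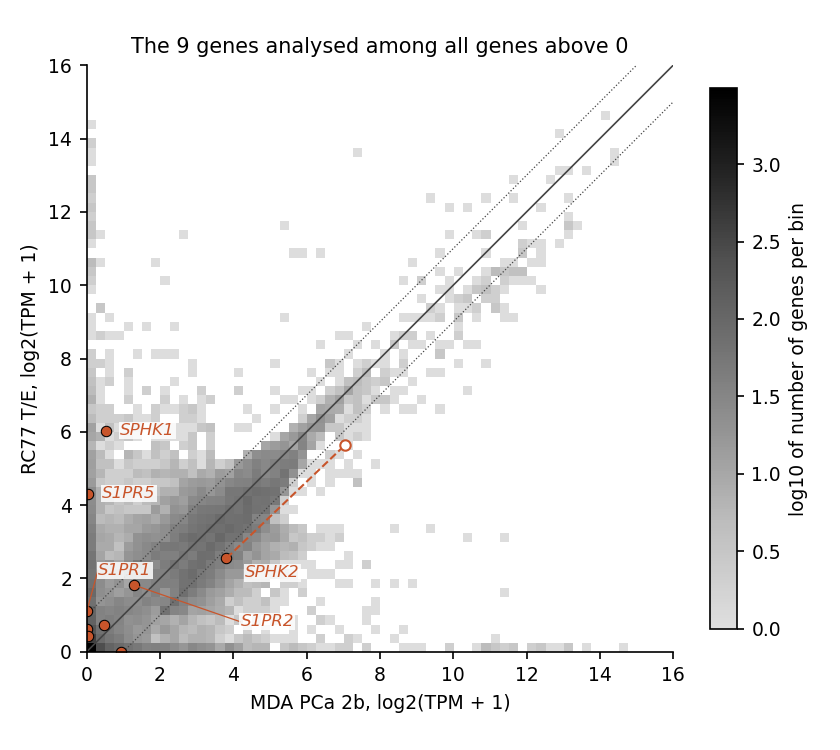
Level in the MDA PCa 2b line against level in the RC77 T/E line, both as log2(TPM + 1), for the 16810 genes above 0 (grey, number of genes per square on a log10 scale, open decimal marks at their lowest reading) and the 9 genes analysed (orange). The dotted lines mark a 2-fold difference on this scale; SPHK1, S1PR5 and S1PR1 lie above the upper line, and SPHK2 lies below the lower line at both readings, joined by a dashed line.

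Among 11160 protein-coding genes with a fixed decimal mark, those nearest to SPHK1 in log2(TPM + 1) over the 2 libraries were PHLDA1, at 0.472 and 68.8 TPM, and EMP3, at 0.612 and 65.3 TPM. Nearest to S1PR5 were RBMS1, at 0.0225 and 18.3 TPM, and AEBP1, at 0.0419 and 18.4 TPM. Nearest to SPHK2 at its lower reading were DDAH1, at 13.3 and 4.83 TPM, and PXMP4, at 13.5 and 4.53 TPM. With 2 libraries, such likeness is a shared pair of levels and no more.

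Other genes that make, remove or respond to LPA and S1P were read from lists written by function. Of 62 such genes, 59 were analysed. At the lower readings 10, or 16.9%, passed 2-fold toward RC77 T/E and 13, or 22.0%, toward MDA PCa 2b, beside 14.4% and 14.5% of all genes above 0 and 19.4% and 20.0% of those with a mean of 1 TPM or more. The 59 genes were not filtered on their mean. At the highest readings the counts were 11 and 16, and no share of all genes was computed there to set beside them. The median log2 ratio of the 59 genes was 0.00, beside -0.01 over all genes above 0 and -0.15 over those with a mean of 1 TPM or more. Among the 59, LPAR4, P2RY10 and GPR174 are listed at 0 in both lines, which sets their ratio at 0. The plasma membrane phosphatases of LPA and S1P, PLPP1 to PLPP3, were not analysed here.

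**Figure D4:**
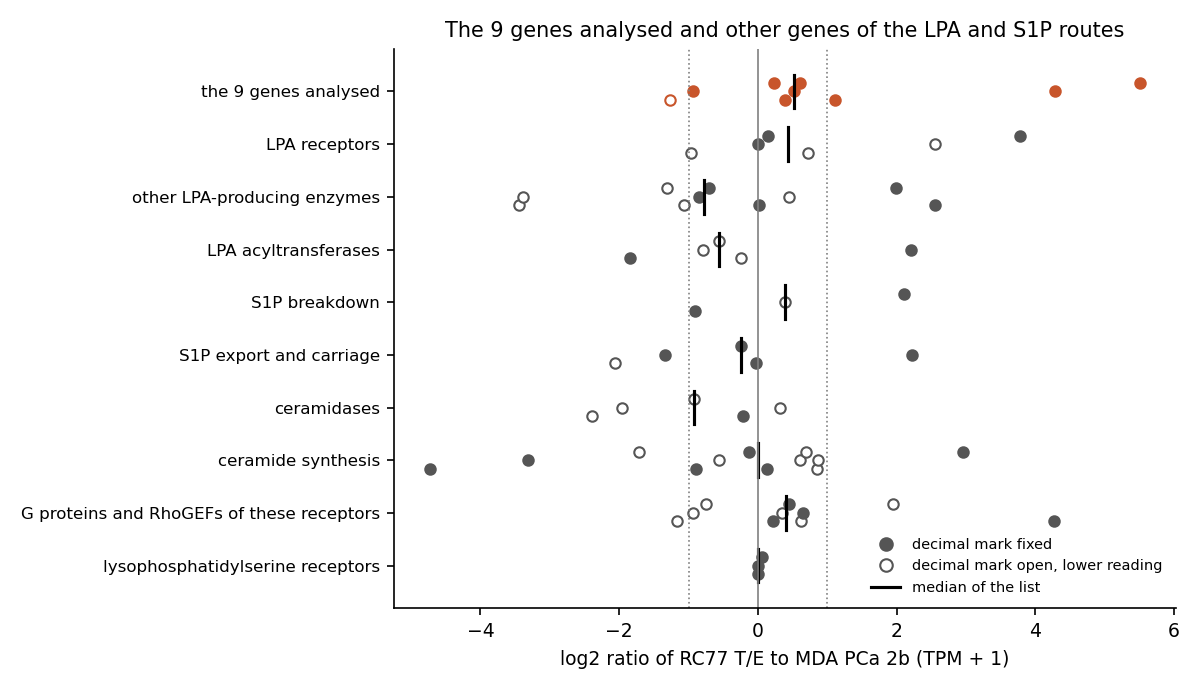
Log2 of the RC77 T/E level over that in the MDA PCa 2b line, with 1 TPM added to each value, for the 9 genes analysed (orange) and the other LPA and S1P genes (grey) by function, 1 point per gene; hollow points have an open decimal mark and are drawn at the lower reading. Black bars are list medians and dotted lines mark 2-fold; SPHK1 at 5.51 is the highest point, and DEGS2 at -4.73 is the lowest.

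Of the 6 LPA receptors, LPAR1 was at 0.0115 TPM in the MDA PCa 2b line and 12.9 TPM in the RC77 T/E line, and LPAR5 was 9.87 times as high in the RC77 T/E line. LPAR3 was 2.44 times as high in the MDA PCa 2b line, with a log2 ratio of -0.97 at its lowest reading and -1.28 at its highest with 1 TPM added. The study prints LPAR3 levels between these readings, where the ratio with 1 TPM added also passed 2-fold. The count toward MDA PCa 2b at the lower readings leaves LPAR3 out. LPAR2 was at 10.9 and 12.1 TPM, LPAR6 was 1.69 times as high in the RC77 T/E line, and LPAR4 is listed at 0 in both. Of 10 other enzymes that can give LPA, PLA2G4A, the cytosolic phospholipase A2, was at 0.0254 TPM in the MDA PCa 2b line and 5.04 TPM in the RC77 T/E line, and PLD1, a phospholipase D, at 0.0506 and 3.18 TPM. Toward RC77 T/E 2 of these 10 genes passed 2-fold at the lower readings, beside 14.4% of all genes above 0. Among genes with a mean of 1 TPM or more, 19.4% did. Toward MDA PCa 2b 4 of the 10 did, beside 14.5% and 20.0%. GDPD1, a lysophospholipase D, was 18.7 times as high there, GDE1 3.30 times and PLA2G6 2.46 times, while PLA2G2A, a secreted phospholipase A2, was at 9.46 TPM or more there and is listed at 0 in the RC77 T/E line. The median log2 ratio of this list was -0.78. AGK, the mitochondrial acylglycerol kinase, was at 28.3 and 15.2 TPM.

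Among the 5 LPA acyltransferases, which turn LPA into phosphatidic acid, AGPAT4 was at 0.0378 TPM in the MDA PCa 2b line and 3.79 TPM in the RC77 T/E line, and AGPAT3 was 3.82 times as high in the MDA PCa 2b line, at 43.4 against 11.4 TPM. AGPAT1, AGPAT2 and AGPAT5 were 1.196, 1.48 and 1.77 times as high in the MDA PCa 2b line.

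S1P is broken down by the lyase SGPL1, which was at 30.3 TPM in the MDA PCa 2b line and 15.7 TPM in the RC77 T/E line, and by the phosphatases SGPP1 and SGPP2. SGPP2 was at 0.298 and 4.58 TPM, while SGPP1 was 1.33 times as high in the RC77 T/E line. Of the transporters and the carrier of S1P, SPNS2, the exporter of endothelial cells, was at 0.584 and 0.344 TPM, and MFSD2B, that of red cells and platelets, at 0.0170 TPM in the MDA PCa 2b line and is listed at 0 in the RC77 T/E line. Neither dedicated exporter reached 1 TPM in either line. ABCC1, a multidrug transporter that also moves S1P, was 5.77 times as high in the MDA PCa 2b line. ABCA1 was at 0.0200 and 3.76 TPM, and APOM, the carrier of S1P on lipoproteins, at 3.71 and 0.867 TPM, summed over 7 loci.

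Ceramidases release the sphingosine on which SPHK1 and SPHK2 act. Of the 5, ACER2 was 5.76 times as high in the MDA PCa 2b line, and ACER1 was at 4.27 TPM or more there and is listed at 0 in the RC77 T/E line. ASAH1, the lysosomal ceramidase, was 2.16 times as high in the MDA PCa 2b line, a ratio short of 2-fold with 1 TPM added only at its lowest reading. ACER3 was 1.27 times as high in the RC77 T/E line, and ASAH2 was at 0.290 and 0.106 TPM. Of 12 genes of ceramide synthesis, CERS3 was at 0.0165 TPM in the MDA PCa 2b line and 6.87 TPM in the RC77 T/E line. DEGS2 at 32.7 and 0.270 TPM, CERS4 at 18.0 and 0.909 TPM and DEGS1 by 3.70 times were higher in the MDA PCa 2b line. The other 8 lay within 2-fold with 1 TPM added at the lower readings, among them SPTLC1, a subunit of serine palmitoyltransferase, whose plain ratio was 2.11 toward RC77 T/E.

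Among 10 genes for G proteins and exchange factors that act after these receptors, GNAI1, an alpha subunit of Gi, was at 0.0579 TPM in the MDA PCa 2b line and 19.3 TPM in the RC77 T/E line. GNAI2, another Gi alpha subunit, was 5.00 times as high in the RC77 T/E line, and the exchange factor ARHGEF11 was 2.63 times as high in the MDA PCa 2b line. GNA13, another G protein alpha subunit, was at 7.94 TPM or more in the MDA PCa 2b line and 12.8 TPM or more in the RC77 T/E line. Of the receptors for lysophosphatidylserine, the product of PLA1A, GPR34 was at 0.0149 and 0.0528 TPM, and P2RY10 and GPR174 are listed at 0 in both lines.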

How the data were processed

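RNA-Seq of total RNA was deposited for MDA PCa 2b and RC77 T/E, 1 library each, from paired-end directional libraries. The submitters' processing notes list CASAVA, FastQC 0.11.9, Trimmomatic 0.38, Salmon 1.2.0 and GRCh38, with no role or order. The deposited values are TPM, which the authors normalised for transcript length and library total. Other units, such as the mean and standard error of both libraries that the authors deposited, served only to restore decimal marks. No read counts were used, so depth and its precision are unknown.

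Of the 22791 rows, 10361 values of MDA PCa 2b and 11082 of RC77 T/E are written with commas and have lost their decimal mark. Values with fewer than 3 decimals kept their mark. Elsewhere a mark was placed after each of the first 3 digits in turn, with 3 or more digits behind it, and kept where the deposited mean and standard error matched. This left 1 position in 16283 rows and 2 or 3 in 6508. It was run on 5000 simulated rows, of which 3585 had 1 position, the true one in all 3585. The simulation wrote means and standard errors by the same rule that the matching uses, so this result was fixed beforehand. It checks the code only, and cannot show that the deposited table lost its marks this way. In rows left with more than 1 position, the lowest was used. 

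Loci of a symbol were summed, repeated rows were used once, and values under 1e-06 TPM were set to 0. The ratio was log2 of RC77 T/E plus 1 TPM over MDA PCa 2b plus 1 TPM, which understates the change of low genes. Genes were called expressed at 1 TPM and different at 2-fold. With 1 library per cell line, no test was run and no p-value is given. Python 3.11.15, pandas 2.3.3 and numpy 2.4.6 were used. Alternatives were other pseudocounts, thresholds, scalings, loci and decimal positions. Gene positions are those of the deposited table, and strands, exons and overlaps those of GENCODE release 29 (GRCh38). For 2 genes, LIPH and PLA1A, the bounds differ slightly between them. A comparison of protein sequences was planned and not run, and some marker genes are not reported here.

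The genes, the lists and the rules were chosen with earlier results of these data known. All 10 genes are named with values where they have a row. From the pathway lists, the genes with the highest and lowest ratio among those at 1 TPM or more are named, and genes of a list of 6 or fewer may be. For the 3 members with the largest ratio in either direction, the 2 nearest genes are given. AGK, GNA13, SPTLC1 and other genes named because a count was 5 or fewer were chosen after their values were seen.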

Additional observations from a re-analysis of the deposited data

How the results depend on the processing

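No paired analysis was possible because MDA PCa 2b and RC77 T/E have 1 library apiece. Centring on the median and upper quartile scaling, both from the lowest readings, moved ratios toward RC77 T/E or left them unchanged. Neither could therefore reverse a gene already higher in RC77 T/E. PLA1A and SPHK2 stayed higher in MDA PCa 2b, with log2 ratios of -0.78 and -1.11 after centring. A change of pseudocount alters the size of a ratio and cannot alter its direction. The decimal position could move only SPHK2, and the choice of locus could move none, since each gene has 1 locus. With a threshold of 5 TPM in place of 1 TPM, 1 gene remained in MDA PCa 2b (SPHK2) and 2 in RC77 T/E (SPHK1 and S1PR5), with SPHK2 at its lower reading. The share of all gene symbols at 5 TPM or more was not computed, so these counts have no background. With a pseudocount of 0.1 TPM, 5 genes passed 2-fold toward RC77 T/E, with ENPP2 and S1PR4 added, and 2 toward MDA PCa 2b, with PLA1A added. At this pseudocount 21.8% and 23.5% of all genes with a mean of 1 TPM or more did, a filter not applied to the 9 genes. The log2 ratio of SPHK1 was then 6.92, of S1PR1 3.60, of S1PR4 1.83, of S1PR5 7.31 and of LIPH 0.58. Centring changed that of LIPH from 0.24 to 0.39. Centring on the median moved the share of all genes at least 2-fold higher from 19.4% to 21.9% for RC77 T/E and from 20.0% to 16.2% for MDA PCa 2b. Rescaling to equal totals was not run, since open decimal marks leave the totals undetermined. Levels under 1 TPM cannot be told from 0 without the depth. These are the levels of ENPP2, LIPH, PLA1A and S1PR4 in both lines, and of SPHK1, S1PR1 and S1PR5 in the MDA PCa 2b line.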
